A study of Mus musculus with 12 samples.

Results

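The basement membrane is the thin sheet of matrix on which endothelial and epithelial cells rest. The 10 genes described here encode parts of it: the collagen IV chains Col4a1 and Col4a2, the multiplexin collagens Col15a1 and Col18a1, the laminin chains Lamb1, Lamb2 and Lamc1, the linker Nid1 (nidogen 1), the heparan sulfate proteoglycan Hspg2 (perlecan) and the collagen-binding glycoprotein Sparc. They were taken by symbol from the deposited expression table, and all 10 were found among its 24296 symbols. For each gene and liver, the FPKM values (fragments scaled by transcript length and library size) of its transcripts were summed, over 50 transcripts in all.

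The study sequenced total RNA from livers of male C57/BL6N mice, 3 livers in each of 4 groups, to follow drug treatment of liver fibrosis made with carbon tetrachloride (CCl4). Controls, labelled WT, had neither CCl4 nor a drug, and the sources used here do not say whether they were injected with the oil in which CCl4 was dissolved, nor give the age of the mice. For 8 weeks, model mice were injected into the abdomen 2 times weekly with CCl4 that was diluted in olive oil and given at 5 mL/kg. Silibinin and phloridzin mice had the same CCl4 and, from week 5, the drug. Silibinin is a flavonolignan of milk thistle, and phloridzin is a dihydrochalcone glucoside that inhibits sodium-glucose cotransporters. By the study's account the phloridzin livers are those of its high-dose group, which the sample labels do not state, and the doses of the drugs differed. The labels do not state that each sample is a separate animal, so the p-values measure the spread between these samples. Library depth, recovered from the steps between FPKM values, was 83.7 M to 111 M fragments. Alb, the albumin gene of hepatocytes, had the highest mean of the hepatocyte markers at 18384 FPKM.

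In a healthy liver the sinusoids, the capillaries between plates of hepatocytes, have a sparse matrix without a continuous basement membrane, while bile ducts and portal vessels have a complete one. In chronic injury, collagen IV and laminin are laid down along the sinusoids, a change known as capillarization. Laminins assemble as trimers of an alpha, a beta and a gamma chain and form a network at the cell surface, collagen IV forms another, and nidogen and perlecan link them.

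The livers within each drug group differed. Phloridzin replicate 1 was the highest of its group for 8 of the 10 genes, and silibinin replicate 3 was the lowest of its group for 7. Phloridzin replicate 2 was the lowest of its group for 5, and below all controls for Lamb1, Nid1 and Hspg2. The median over the 9 genes tested, as a difference in log2(FPKM + 1) from the control mean, was 1.01 in phloridzin replicate 1 and 0.24 and 0.68 in replicates 2 and 3. The same median was 0.50 in silibinin replicate 3 and 0.82 and 1.01 in replicates 1 and 2. The model livers lay between 1.11 and 1.26, closer together than the livers of either drug group.

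**Figure D1:**
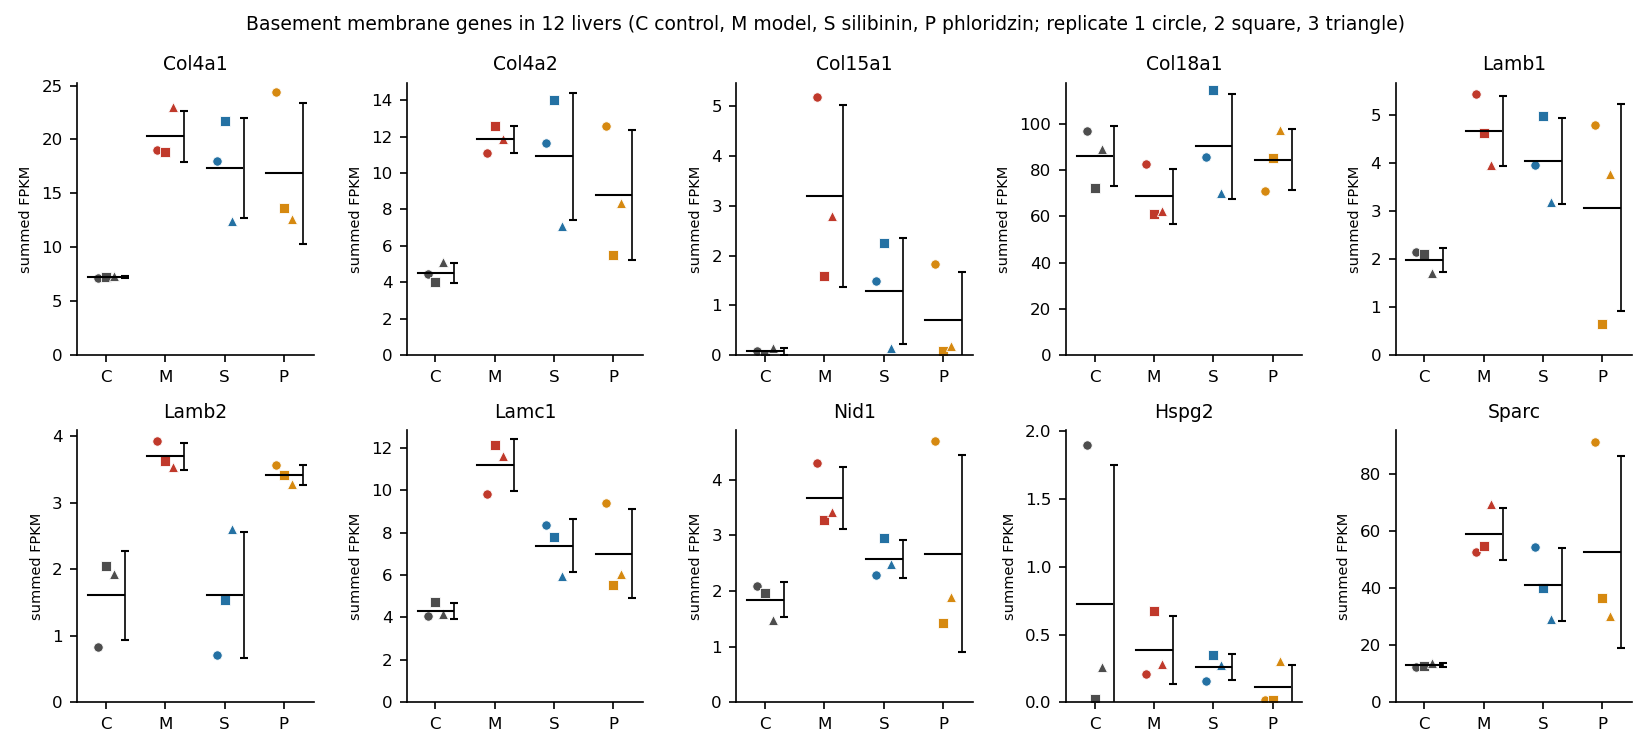
Summed FPKM (y axis) of the 10 basement membrane genes in each liver of the control (C), model (M), silibinin (S) and phloridzin (P) groups; symbols mark replicates, horizontal lines the means and vertical bars 1 SD over 3 livers. All model livers lie above all control livers for 8 genes, the exceptions being Col18a1 and Hspg2, and phloridzin replicate 1 (circle) lies above the other phloridzin livers for 8.

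In the model livers, 6 of the 9 genes tested rose against control: Col4a1, Col4a2, Col15a1, Lamb2, Lamc1 and Sparc. A gene passed at an adjusted p under 0.05 in limma, a linear model fitted over all genes, and 31.1% of all 13158 genes tested rose. With a log2 difference above 1 also required, 5 of the 9 passed, all but Lamb2, beside 9.42% of all genes. All model livers lay above all controls for 8 of the 9, beside 45.1% of all genes. The groups overlapped for Col18a1. Hspg2, with a mean of 0.372 FPKM over the 12 livers, was under the minimum of 0.5 and was not tested. The median log2 difference of the 9 genes was 1.196, and that of all genes was 0.34.

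The shift of all genes depends on the scaling. Scaling the livers by median ratios moved the all-gene median from 0.34 to -0.01, and the calls from 4094 higher and 500 lower to 1642 higher and 1660 lower. Under that scaling Col4a1, Col4a2, Col15a1, Lamc1 and Sparc rose, Lamb2 did not pass, and Col18a1 fell. Relative to the all-gene median, the log2 differences were 1.75 for Sparc, 1.53 for Col15a1, 1.02 for Col4a1, 0.89 for Col4a2, 0.86 for Lamc1 and 0.55 for Lamb2. In bulk tissue, fewer cells of a type and less RNA per cell cannot be told apart, nor can more of either.

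Against the model, Lamb2 fell with silibinin and Lamc1 fell with phloridzin, 1 of the 9 genes with each drug. Among all genes 11.4% fell with silibinin and 10.4% with phloridzin, so these counts are near the background. All silibinin livers lay below all model livers for Lamb2, Lamc1 and Nid1, 3 of the 9, beside 27.8% of all genes. All phloridzin livers did so for Lamc1 alone, 1 of the 9, beside 22.4%. Under median-ratio scaling no member passed with either drug, where 831 of all 13079 genes fell with silibinin and 809 with phloridzin. The median log2 difference of the 9 genes was -0.38 with silibinin and -0.44 with phloridzin, where the medians of all genes were -0.15 and -0.11. Both comparisons share the model livers. Without phloridzin replicate 1, Col15a1, Lamc1, Nid1 and Sparc passed as lower with phloridzin, beside 1723 of all 13095 genes tested in that fit. Lamb2 and Lamc1 did so with silibinin, beside 1817. Without any 1 of 10 other livers, all but silibinin replicate 3, no member passed as lower with phloridzin. Without both phloridzin replicate 1 and silibinin replicate 3, left out after their levels of these genes were seen, 6 of the 9 passed with phloridzin and 1 with silibinin, beside 1836 and 1212 of all 13113 genes. Phloridzin replicate 1 was the highest of its group for 8 of the 10 genes, so its removal favours calls as lower with phloridzin.

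Between the drugs, none of the 9 genes differed in limma, and 3 of all genes did, which is 0.0228%. At an unadjusted limma p under 0.05, 494 of all genes differed, Lamb2 being the only member. Voom, limma's method for counts, applied to the recovered fragment numbers, called 3 genes and no member. Against control, Col4a1, Col4a2 and Sparc were higher with silibinin, 3 of the 9, beside 4.59% of all genes. With phloridzin, Col4a1 and Sparc were higher, 2 of the 9, beside 7.51%. Under median-ratio scaling Col4a1 and Sparc passed with each drug, beside 401 of all 13079 genes with silibinin and 534 with phloridzin.

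**Figure D2:**
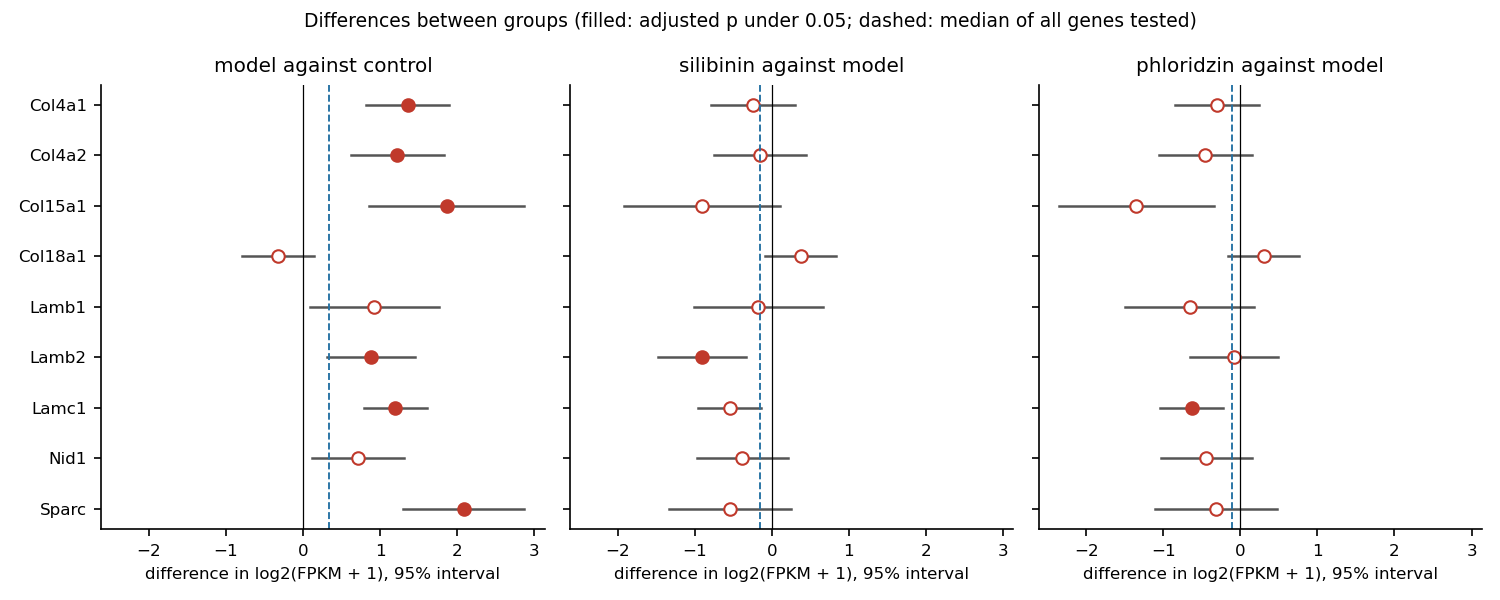
Difference in log2(FPKM + 1) between groups (x axis) for the 9 genes tested, with 95% intervals from limma; filled points passed at an adjusted p under 0.05, and the dashed line is the median of all genes. For the model 6 points are filled, of which Lamb2 does not pass under median-ratio scaling, and for each drug 1 is filled, which does not pass under that scaling.

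Collagen IV is the network-forming collagen of basement membranes, and its most widespread form is made of alpha1 and alpha2 chains. Their genes, Col4a1 (ENSMUSG00000031502, chr8:11198423-11312826, minus strand, build mm10) and Col4a2 (ENSMUSG00000031503, chr8:11312805-11449287, plus strand), lie head to head and are transcribed away from each other. Their promoters are shown because both genes rose and the windows share bases. The RefSeq windows (GRCm38.p6), from 250 bases before to 50 after each start, are chr8:11312777-11313076, minus strand, for Col4a1 and chr8:11312555-11312854, plus strand, for Col4a2. Capitals mark the 78 bases, chr8:11312777-11312854, that both windows hold, read on opposite strands.
Col4a1: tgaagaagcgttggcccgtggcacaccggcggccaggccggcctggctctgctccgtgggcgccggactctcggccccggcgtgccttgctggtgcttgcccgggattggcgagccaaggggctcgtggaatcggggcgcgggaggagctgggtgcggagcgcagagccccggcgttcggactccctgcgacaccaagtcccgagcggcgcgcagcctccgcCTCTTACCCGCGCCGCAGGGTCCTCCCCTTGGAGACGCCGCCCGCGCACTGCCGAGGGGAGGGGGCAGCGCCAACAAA
Col4a2: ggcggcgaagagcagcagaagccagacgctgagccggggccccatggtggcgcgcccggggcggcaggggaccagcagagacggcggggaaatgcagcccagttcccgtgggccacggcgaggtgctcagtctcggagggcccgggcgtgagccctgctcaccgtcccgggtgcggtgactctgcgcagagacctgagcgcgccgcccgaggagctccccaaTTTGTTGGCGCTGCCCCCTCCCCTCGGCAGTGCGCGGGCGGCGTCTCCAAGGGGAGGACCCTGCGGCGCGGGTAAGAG
RefSeq windows were found for 9 of the 10 genes, with 2 for Col18a1, and none for Lamc1. Both strands were searched for 4 motifs, none of which contains another. The motif GGGCGG, known as the GC box, was found 1 time for Col4a1 and 3 times for Col4a2, the 1 match in the shared bases being counted for both, and 35.7% of all 32851 promoters hold it. Each window held the motif CCAAT 1 time, and 37.4% of all promoters hold it. The TATA box, searched as TATAAA, is held by 13.6% of all promoters and was in none of the members' windows. The same was so for the AP-1 motif, searched as TGANTCA and held by 7.81%. G and C made up 74.0% of the Col4a1 window and 73.7% of the Col4a2 window, against a median of 52.7% over all promoters.

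Col4a1 was at 7.19, 7.26 and 7.36 FPKM in the controls and at 19.0, 18.8 and 23.0 in the model. It was at 18.0, 21.7 and 12.4 with silibinin and at 24.4, 13.6 and 12.6 with phloridzin. Every liver given CCl4 was above every control, and silibinin replicates 1 and 3 and phloridzin replicates 2 and 3 were below the model livers. The model mean was 20.3 ± 2.38 against 7.27 ± 0.0838 FPKM (SD, n = 3), a ratio of 2.79. The log2 difference was 1.36 ± 0.24 (SE, limma adjusted p = 0.00226), and it passed in each of the 12 fits that left 1 liver out. From the model, the log2 difference was -0.24 with silibinin (95% interval -0.78 to 0.30, limma adjusted p = 0.561). It was -0.31 with phloridzin (-0.85 to 0.24, limma adjusted p = 0.460).

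Both drug groups had Col4a1 above control, in 3 of 3 livers each. The log2 difference was 1.12 with silibinin (limma adjusted p = 0.0297) and 1.05 with phloridzin (limma adjusted p = 0.0294). The silibinin call was lost without control replicate 1, 2 or 3 or silibinin replicate 1 or 2 (limma adjusted p 0.0824 to 0.125, 0.00605 to 0.125 over all 12), and with no filter on low values or the most abundant transcript alone. The phloridzin call was lost without control replicate 1, 2 or 3 or phloridzin replicate 1 (limma adjusted p 0.0631 to 0.0853, 0.0226 to 0.0853 over all 12), and with no filter, the fit of 2 groups or the most abundant transcript alone.

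Col4a2 was at 4.45, 4.02 and 5.09 FPKM in the controls and at 11.1, 12.6 and 11.9 in the model. It was at 11.6, 14.0 and 7.10 with silibinin and at 12.6, 5.48 and 8.35 with phloridzin. As for Col4a1, every CCl4 liver was above every control, but the lowest phloridzin liver was replicate 2. The model mean was 11.9 ± 0.744 against 4.52 ± 0.541 FPKM (SD, n = 3), a ratio of 2.62. The log2 difference was 1.22 ± 0.27 (SE, limma adjusted p = 0.00648) and passed in all 12 fits with 1 liver left out. From the model it was -0.46 with phloridzin (-1.06 to 0.14, limma adjusted p = 0.310) and -0.15 with silibinin (-0.75 to 0.45, limma adjusted p = 0.756), the latter turning to 0.04 under median-ratio scaling and to 0.10 without silibinin replicate 3. Against control it was 1.07 with silibinin (limma adjusted p = 0.0499), higher in 3 of 3 livers. That call was lost without any 1 of the controls or model livers, silibinin replicate 1 or 2 or phloridzin replicate 3 (limma adjusted p 0.0633 to 0.187, 0.0190 to 0.187 over all 12). It was also lost in 7 of 9 other settings, among them median ratios, the replicate block and voom (limma adjusted p 0.00280 to 0.0962 over the 9).

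Per length, Col4a1 was the more abundant chain in every liver. The ratio of Col4a1 to Col4a2 FPKM was 1.62 ± 0.181 (SD, n = 3) in control, 1.71 ± 0.224 in the model, 1.61 ± 0.116 with silibinin and 1.98 ± 0.489 with phloridzin. The mean log2 ratio differed by 0.08 between model and control (two-sided exact permutation p = 0.7, adjusted 0.9). With 3 livers against 3 this test cannot give less than 0.1. The library kit does not mark strand, so fragments from the overlapping 5′ ends of these genes cannot be assigned to either by strand.

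The other collagen IV chains, Col4a3, Col4a4, Col4a5 and Col4a6, belong to networks of more restricted tissues such as the kidney glomerulus. Of these 4, Col4a5 reached the minimum for testing, with a mean of 0.821 FPKM, and did not pass in any of the 6 comparisons. Its livers were uneven, with 0.00984, 3.70 and 0.00915 FPKM with silibinin. Col4a3 and Col4a4 had means of 0.0908 and 0.114. Col4a6, too low to be tested, was at 0.0972, 0.0222 and 0.0741 in the controls, 0.592, 0.275 and 0.522 in the model, 0.662, 0.356 and 0.314 with silibinin and 0.617, 0.396 and 0.460 with phloridzin, above all controls in all 9 CCl4 livers.

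Col15a1 and Col18a1 encode collagens XV and XVIII, which carry glycosaminoglycan chains and release the C-terminal fragments restin and endostatin. Their levels in control liver were at opposite ends of the 10 genes. Col15a1 (ENSMUSG00000028339, chr4:47208161-47313167) was the lowest on average, at 0.0818, 0.0113 and 0.148 FPKM. Col18a1 (ENSMUSG00000001435, chr10:77052178-77166548) was the highest, at 97.1, 72.0 and 89.0.

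Col15a1 was at 5.19, 1.60 and 2.79 FPKM in the model. It was at 1.49, 2.25 and 0.151 with silibinin and at 1.82, 0.0886 and 0.194 with phloridzin. Silibinin replicate 3 and phloridzin replicates 2 and 3 were within or just above the control range, and phloridzin replicate 1 was within the model range. The model mean was 3.19 ± 1.83 against 0.0805 ± 0.0684 FPKM (SD, n = 3), a ratio of 39.7 between low levels. The log2 difference, which the added 1 makes smaller for low genes, was 1.87 ± 0.46 (SE, limma adjusted p = 0.0103) and passed in all 12 fits with 1 liver left out. Between 4 and 2083 fragments a liver lay behind these values.

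From the model, the log2 difference of Col15a1 was -0.90 with silibinin (95% interval -1.91 to 0.10, limma adjusted p = 0.220) and -1.35 with phloridzin (-2.36 to -0.34, limma adjusted p = 0.0791). Neither passed. Without phloridzin replicate 1 the phloridzin difference passed (limma adjusted p = 0.0222, 0.0222 to 0.232 over the 12 fits).

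Col18a1 was at 82.5, 61.2 and 62.1 FPKM in the model, at 85.8, 115 and 70.05 with silibinin and at 71.0, 85.1 and 97.4 with phloridzin. Each of these groups overlapped with control. The model mean of 68.6 ± 12.04 against 86.0 ± 12.8 FPKM (SD, n = 3) gave a log2 difference of -0.33 ± 0.21 (SE, limma adjusted p = 0.248). Under median-ratio scaling the difference was -0.80 and passed as lower (limma adjusted p = 0.0194), while none of the 12 fits with 1 liver left out passed (limma adjusted p 0.1497 to 0.487). From the model it was 0.37 with silibinin and 0.30 with phloridzin (limma adjusted p = 0.273 and 0.394).

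The 2 most abundant Col18a1 transcripts start 52602 bases apart, and the RefSeq promoter near the upstream start is shown because the livers differed in the level of the transcript that begins there. The window is chr10:77166481-77166780, minus strand of GRCm38.p6. Capitals mark matches to the motifs named above, on either strand. It held GGGCGG 3 times and CCAAT 1 time. The other RefSeq window of Col18a1 is set on the start of a transcript with 2.33% of the gene's mean FPKM and lies almost wholly inside the most abundant transcript, so it is not printed.
Col18a1 upstream: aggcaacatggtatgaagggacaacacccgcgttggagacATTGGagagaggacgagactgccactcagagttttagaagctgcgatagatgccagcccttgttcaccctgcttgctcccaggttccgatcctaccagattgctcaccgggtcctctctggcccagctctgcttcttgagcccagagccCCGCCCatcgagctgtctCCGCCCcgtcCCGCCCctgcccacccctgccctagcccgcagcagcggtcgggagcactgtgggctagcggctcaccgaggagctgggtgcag
The transcript with the downstream start (ENSMUST00000072755) was at 92.7, 69.2 and 47.8 FPKM in the controls and at 41.6, 29.4 and 56.9 in the model. The transcript with the upstream start (ENSMUST00000081654) was at 0.0939, 0 and 34.7 in the controls and at 28.4, 24.7 and 0 in the model. Over all 12 livers the upstream transcript was above 20 FPKM in 5 and below 1 in 7, and every group held livers of both kinds. None of the Col18a1 transcripts tested passed in any of the 6 comparisons.

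**Figure D3:**
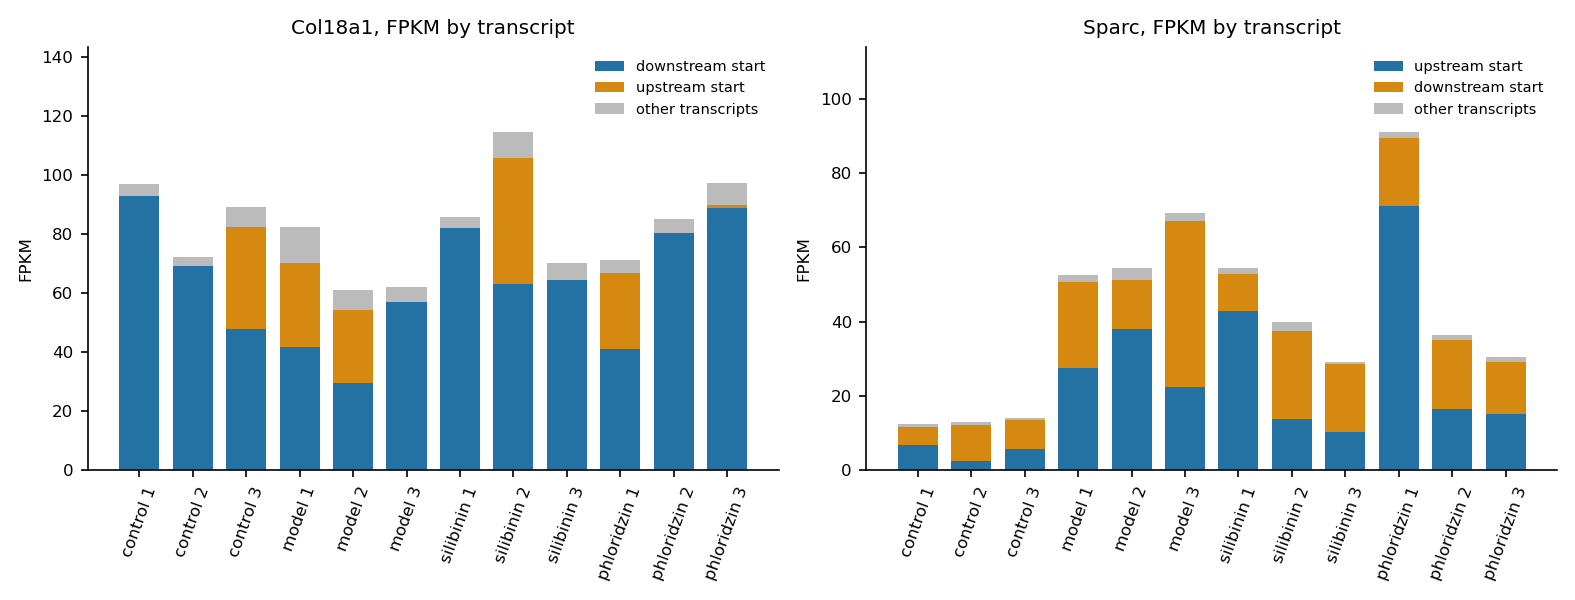
FPKM (y axis) of the transcripts of Col18a1 and Sparc in each liver, stacked so that a bar is the sum for the gene. The upstream Col18a1 transcript is above 20 FPKM in 5 livers, from every group, and the Sparc sum is above all controls in all 9 CCl4 livers.

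Of the 50 transcripts of the 10 genes, 17 reached a mean of 0.5 FPKM and were tested. In the model 6 rose, from 5 genes: 1 each of Col4a1, Col4a2, Col15a1 and Lamc1 and 2 of Sparc (limma, adjusted p under 0.05), beside 12.4% of all 26908 transcripts tested. No transcript of the 10 genes passed in the other 5 comparisons.

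Laminins were represented by the beta1 chain Lamb1 (ENSMUSG00000002900, chr12:31265234-31329644), the beta2 chain Lamb2 (ENSMUSG00000052911, chr9:108479857-108490530) and the gamma1 chain Lamc1 (ENSMUSG00000026478, chr1:153218922-153332786). Gamma1 is shared by most laminin trimers, while beta1 and beta2 are alternatives to each other. Lamb2 and Lamc1 rose in the model.

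Lamc1 was at 4.05, 4.72 and 4.16 FPKM in the controls and at 9.82, 12.1 and 11.6 in the model. It was at 8.37, 7.79 and 5.97 with silibinin and at 9.40, 5.55 and 6.05 with phloridzin. All 6 drug-treated livers lay between the highest control and the lowest model liver. The model mean was 11.2 ± 1.21 against 4.31 ± 0.359 FPKM (SD, n = 3), a ratio of 2.60. The log2 difference was 1.196 ± 0.19 (SE, limma adjusted p = 0.00106) and passed in all 12 fits with 1 liver left out.

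From the model, Lamc1 fell with phloridzin by a log2 difference of -0.63 (95% interval -1.04 to -0.22, limma adjusted p = 0.0486), lower in 3 of 3 livers. With silibinin the log2 difference was -0.55 (-0.96 to -0.14, limma adjusted p = 0.0761), which did not pass. The difference between the drugs was -0.09 (-0.50 to 0.32, limma adjusted p = 1), so the calls do not separate them. The phloridzin call was lost without any 1 of the controls (limma adjusted p 0.0632 to 0.0662), any 1 of the model livers (0.0684 to 0.138), silibinin replicate 1 or 2 (0.0609 and 0.0662) or phloridzin replicate 2 or 3 (0.168 and 0.140). It was lost as well in 6 of 9 other settings, among them median ratios, the replicate block and the most abundant transcript alone (limma adjusted p 0.00450 to 0.137 over the 9). Without phloridzin replicate 1 both drugs passed, at a limma adjusted p of 0.00728 for phloridzin and 0.0255 for silibinin (0.0255 to 0.229 over the 12 fits).

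Lamb2 was at 0.836, 2.05 and 1.93 FPKM in the controls and at 3.92, 3.63 and 3.54 in the model. It was at 0.714, 1.53 and 2.61 with silibinin and at 3.56, 3.41 and 3.27 with phloridzin. The silibinin livers reached below and above the control range, phloridzin replicate 1 was within the model range, and phloridzin replicates 2 and 3 lay just below it. Of the 9 genes tested, Lamb2 was the one in which the drug groups did not overlap, and in it phloridzin replicate 1 was close to replicates 2 and 3.

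For Lamb2 the model mean was 3.70 ± 0.201 against 1.60 ± 0.669 FPKM (SD, n = 3), a log2 difference of 0.89 ± 0.26 (SE, limma adjusted p = 0.0230). The call was lost without control replicate 1 (limma adjusted p = 0.0819), without model replicate 1, 2 or 3 (0.0618, 0.0540 and 0.0503) and under median-ratio scaling (0.174). With silibinin Lamb2 fell from the model by a log2 difference of -0.91 (95% interval -1.48 to -0.34, limma adjusted p = 0.0406), lower in 3 of 3 livers, to 1.62 ± 0.949 FPKM. That call was lost without any 1 of the model livers (limma adjusted p 0.0814 to 0.102), silibinin replicate 1 or 2 (0.126 and 0.0872) or phloridzin replicate 2 or 3 (0.0555 and 0.0541), and was at 0.0166 to 0.126 over all 12. Of 9 other settings 6 dropped it: a pseudocount of 0.1, no filter, the fit of 2 groups, median ratios, the most abundant transcript alone and voom (limma adjusted p 0.0193 to 0.123 over the 9). In the last 2 of these Lamc1 was the gene that passed as lower with silibinin.

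With phloridzin Lamb2 had a mean of 3.41 ± 0.144 FPKM (SD, n = 3). Its log2 difference from the model was -0.09 (95% interval -0.66 to 0.48, limma adjusted p = 0.858), which turned to 0.05 under median-ratio scaling. The direct difference, phloridzin minus silibinin, was 0.82 on the log2 scale (0.25 to 1.39, limma unadjusted p = 0.00937), higher in 3 of 3 livers, and failed the correction over all genes (adjusted p = 1). Between 98 and 1833 fragments a liver lay behind Lamb2.

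Lamb1 was at 2.14, 2.101 and 1.70 FPKM in the controls and at 5.42, 4.61 and 3.96 in the model. It was at 3.95, 4.98 and 3.19 with silibinin and at 4.79, 0.648 and 3.76 with phloridzin. Phloridzin replicate 2 was below all controls, and every other CCl4 liver was above them. The log2 difference in the model, 0.92 ± 0.38 (SE, limma adjusted p = 0.0813), did not pass. It passed without phloridzin replicate 1 (limma adjusted p = 0.0483) or 2 (0.00349, 0.00349 to 0.184 over all 12), livers that enter this comparison through the shared estimate of the spread, and in the fit of model and control livers alone (0.00619). From the model it was -0.18 with silibinin and -0.66 with phloridzin (limma adjusted p = 0.802 and 0.292).

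The ratio of Lamb1 to Lamb2 was 2.56, 1.03 and 0.881 in the controls and 1.38, 1.27 and 1.12 in the model livers. With silibinin it was 5.53, 3.25 and 1.23, and with phloridzin 1.34, 0.190 and 1.15. In summed FPKM the highest ratio was in silibinin replicate 1, the liver lowest in Lamb2. The lowest was in phloridzin replicate 2, the liver lowest in Lamb1. In fragments, control replicate 1 was lowest in Lamb2, at 98 against 201 in silibinin replicate 1. For Lamb1 these livers had 1174 and 2149 fragments, so by fragments the highest ratio was in control replicate 1. The mean log2 ratio differed from the model by 1.16 with silibinin (two-sided exact permutation p = 0.3, adjusted 0.9) and by -0.92 with phloridzin (exact permutation p = 0.5, adjusted 0.9). The summed beta chains over Lamc1 gave 0.829 ± 0.0824 (SD, n = 3) in control, 0.759 ± 0.167 in the model, 0.788 ± 0.211 with silibinin and 0.927 ± 0.219 with phloridzin. These were 9 tests in all over the chain ratios, and none could fall below 0.1.

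Of the 8 other laminin chains, 7 were tested and 4 rose in the model, beside 31.1% of all genes: Lama2, Lama4, Lama5 and Lamc3. Lama4, an alpha chain of vascular basement membranes and the most abundant of the list, was at 2.18 ± 0.202 FPKM (SD, n = 3) in control and 3.21 ± 0.403 in the model. Lama2 was at 0.0265 ± 0.0235 and 1.01 ± 0.358, Lama5 at 0.630 ± 0.179 and 1.39 ± 0.301, and Lamc3 at 0.618 ± 0.185 and 1.78 ± 0.331. Lama2, with a mean of 0.601 FPKM over all livers, reached the minimum for testing only through the CCl4 livers. This favours its calls as higher than control. The median log2 difference of the list was 0.40, near the 0.34 of all genes. Under median-ratio scaling Lama2 alone rose and Lama3, an alpha chain of epithelia, fell. Lama3 rose with silibinin from the model, from 0.421 ± 0.127 to 1.03 ± 0.226 FPKM (log2 difference 0.51, limma adjusted p = 0.0278), also under median-ratio scaling, 1 of 7 beside 345 of all 13158 genes. No chain of the list passed with phloridzin from the model. Against control, Lama2 was higher with silibinin and Lamc3 with phloridzin, 1 of 7 each, beside 4.59% and 7.51% of all genes, and the Lamc3 call was lost under median-ratio scaling.

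**Figure D4:**
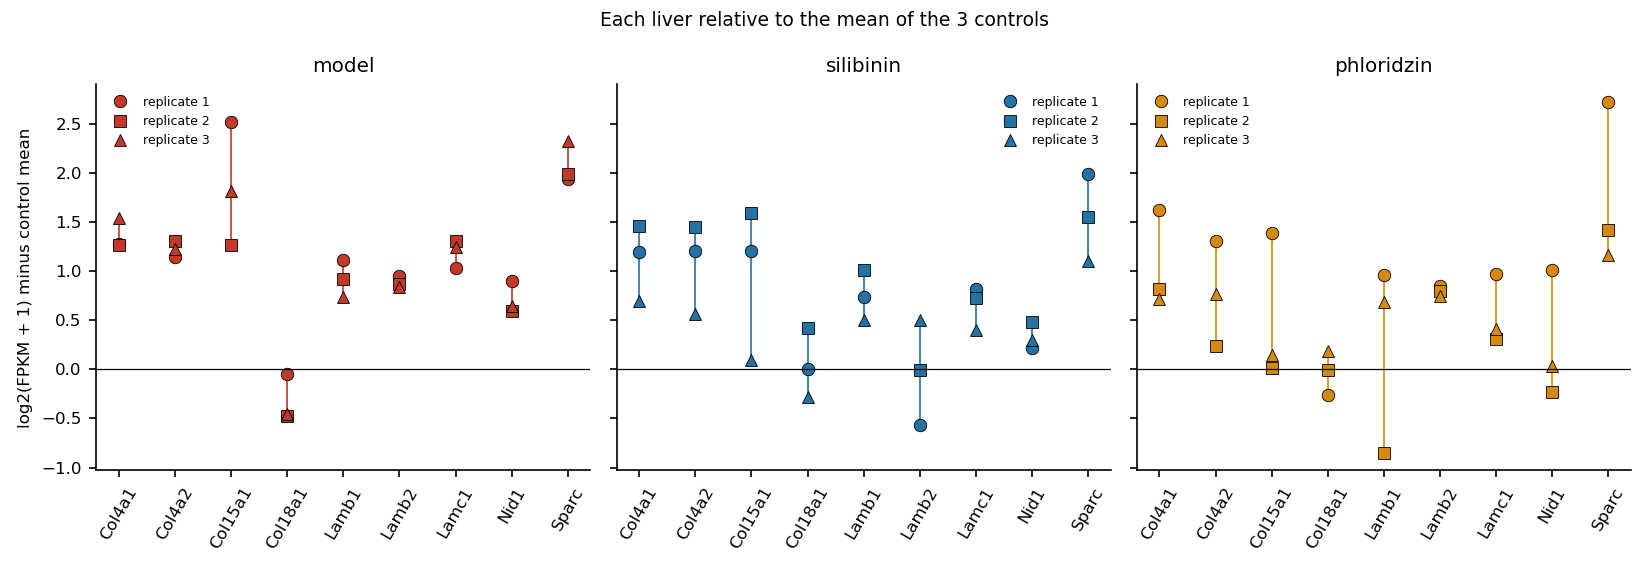
Each CCl4 liver's log2(FPKM + 1) minus the mean of the 3 controls (y axis) for the 9 genes tested; symbols mark replicates and vertical lines join the lowest and highest liver of a group. Phloridzin replicate 1 (circle) is the highest of its group except for Col18a1, and silibinin replicate 3 (triangle) the lowest of its group except for Lamb2 and Nid1.

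Nidogen 1 (Nid1, ENSMUSG00000005397, chr13:13437551-13512269) binds the laminin gamma1 chain and collagen IV. It was at 2.09, 1.96 and 1.49 FPKM in the controls and at 4.30, 3.27 and 3.42 in the model. It was at 2.28, 2.94 and 2.49 with silibinin and at 4.70, 1.42 and 1.90 with phloridzin. The silibinin livers lay between control and model, and the phloridzin livers reached beyond both. The log2 difference in the model, 0.71 ± 0.27 (SE, limma adjusted p = 0.0605), did not pass, though it did without phloridzin replicate 1 (limma adjusted p = 0.00443) or 2 (0.0390, 0.00443 to 0.160 over all 12), in the fit of model and control livers alone (0.0151) and without both drug livers named above (0.00642). From the model it was -0.38 with silibinin (limma adjusted p = 0.383). With phloridzin it was -0.44 (limma adjusted p = 0.319), and it passed without phloridzin replicate 1 (limma adjusted p = 0.0103, 0.0103 to 0.710 over all 12). Transcripts with a retained intron held 51.4% and 13.1% of the gene's mean FPKM, and the coding transcript 35.5%. With phloridzin from the model, the log2 difference was 0.05 for the coding transcript (limma adjusted p = 0.953). For the main transcript with a retained intron it was -0.65 (limma adjusted p = 0.176).

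Perlecan (Hspg2, ENSMUSG00000028763, chr4:137468769-137570630) was at 1.89, 0.0257 and 0.258 FPKM in the controls and at 0.206, 0.671 and 0.284 in the model. It was at 0.157, 0.351 and 0.275 with silibinin and at 0.0161, 0.0197 and 0.304 with phloridzin. Control replicate 1 held the highest value, and all groups overlapped. Between 7 and 2223 fragments a liver lay behind it.

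Sparc (ENSMUSG00000018593, chr11:55394500-55420080) binds collagen IV and fibrillar collagens. It was at 12.3, 12.8 and 13.9 FPKM in the controls and at 52.7, 54.5 and 69.3 in the model. With silibinin it was at 54.4, 39.9 and 29.0, and with phloridzin at 91.2, 36.5 and 30.3. All 9 CCl4 livers were above all controls, and the highest of the 12 was phloridzin replicate 1. The model mean was 58.8 ± 9.13 against 13.02 ± 0.798 FPKM (SD, n = 3), a ratio of 4.52. The log2 difference was 2.08 ± 0.36 (SE, limma adjusted p = 0.00170), and passed in all 12 fits with 1 liver left out.

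From the model, the log2 difference of Sparc was -0.54 with silibinin (95% interval -1.33 to 0.25, limma adjusted p = 0.355) and -0.32 with phloridzin (-1.11 to 0.47, limma adjusted p = 0.611). Without phloridzin replicate 1 the phloridzin difference passed (limma adjusted p = 0.0471, 0.0471 to 0.985 over all 12). Against control, Sparc was higher by 1.54 with silibinin (limma adjusted p = 0.0355) and by 1.77 with phloridzin (limma adjusted p = 0.0178), in 3 of 3 livers each. The silibinin call was lost without any 1 of the controls (limma adjusted p 0.0873 to 0.101), any 1 of the model livers (0.0508 to 0.0530) or silibinin replicate 1 or 2 (0.136 and 0.121), with 0.00280 to 0.136 over all 12, and with no filter or the most abundant transcript alone. The phloridzin call was lost without control replicate 1 or 2 (limma adjusted p = 0.0609 and 0.0574, 0.0113 to 0.0609 over all 12), in the fit of 2 groups and with the most abundant transcript alone. Its 2 main transcripts start 182 bases apart, and both rose in the model, with log2 differences of 2.38 and 1.61 (limma adjusted p = 0.0366 and 0.0345).

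In mean FPKM, which is per length, the order of levels in control was Col18a1 (86.0), Sparc (13.02), Col4a1 (7.27), Col4a2 (4.52), Lamc1 (4.31), Lamb1 (1.98), Nid1 (1.85), Lamb2 (1.60), Hspg2 (0.726) and Col15a1 (0.0805). Col4a2 and Lamc1 overlapped, as did Lamb1, Nid1, Lamb2 and Hspg2, and Hspg2 with Col15a1. In the model, Sparc at 58.8 overlapped with Col18a1 at 68.6, Col4a2 with Lamc1, and Col15a1 at 3.19 overlapped with Lamb1, Lamb2 and Nid1.

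Of 14 other components of basement membranes, 11 were tested and 6 rose in the model, beside 31.1% of all genes: Nid2, Agrn, Fbln1, Fbln2, Smoc2 and Tinag. Nid2, the other nidogen, was at 1.87 ± 0.765 FPKM (SD, n = 3) in control and 5.82 ± 0.836 in the model. Smoc2, a relative of Sparc, was at 1.15 ± 0.458 and 5.98 ± 0.411, and agrin (Agrn), a heparan sulfate proteoglycan like perlecan, at 6.55 ± 0.853 and 10.2 ± 0.859. Tinag was listed at 0 in the 3 controls and at 0.625, 0.468 and 0.843 in the model. With a mean of 0.594 FPKM over all livers, it reached the minimum for testing only through the CCl4 livers. This favours its calls as higher than control. Smoc1, the most abundant with a mean of 31.8 FPKM, did not pass. The median log2 difference of the list was 0.57 against 0.34 for all genes, and under median-ratio scaling Fbln1, Fbln2, Nid2 and Smoc2 rose.

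None of these genes fell with a drug. Fras1, which encodes a protein of epithelial basement membranes, rose with silibinin from 0.449 ± 0.187 in the model to 1.10 ± 0.360 FPKM (SD, n = 3), a log2 difference of 0.53 (limma adjusted p = 0.0431), 1 of 11 beside 345 of all 13158 genes. Fras1 reached the minimum of 0.5 FPKM through the silibinin livers, its means being 0.293 in control, 0.449 in the model and 0.499 with phloridzin. This favours its calls as higher with silibinin. Against control, Nid2 and Fras1 were higher with silibinin, 2 of 11 beside 4.59% of all genes, and Nid2, Ntn4, Smoc2 and Tinag with phloridzin, 4 of 11 beside 7.51%. Of the phloridzin calls Tinag alone was kept under median-ratio scaling, and both silibinin calls were kept.

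Of 18 enzymes and chaperones that fold, modify or crosslink collagen, 16 were tested and 9 rose in the model, beside 31.1% of all genes. They were Serpinh1 (the collagen chaperone HSP47), the prolyl 4-hydroxylase subunits P4ha1 and P4ha2, the lysyl hydroxylase Plod2, the prolyl 3-hydroxylases P3h2 and P3h3, Crtap, Ppib and the lysyl oxidase Loxl2. Serpinh1 was at 1.95 ± 0.376 FPKM (SD, n = 3) in control and 8.93 ± 2.92 in the model, Plod2 at 0.412 ± 0.128 and 2.51 ± 0.435, and Loxl2 at 0.422 ± 0.0584 and 2.92 ± 0.327. The median log2 difference of the list was 0.77 against 0.34 for all genes. Under median-ratio scaling Loxl2, P3h2, P3h3, P4ha1, Plod2 and Serpinh1 rose and Plod1 fell. The most abundant, P4hb, had a mean of 393 FPKM, was at 441, 409 and 2.22 in the controls and did not pass.

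P4ha1 and P4ha2, catalytic subunits of the enzyme whose hydroxyproline stabilizes the collagen helix, fell with both drugs. With each drug these were 2 of the 16, which is near the 11.4% of all genes that fell with silibinin and the 10.4% with phloridzin. P4ha1 was at 7.28, 8.08 and 9.18 FPKM in the model, 3.49, 4.23 and 3.08 with silibinin and 5.48, 5.09 and 3.26 with phloridzin. P4ha2 was at 3.89, 2.88 and 3.41 in the model, 1.10, 1.68 and 1.82 with silibinin and 1.67, 1.73 and 2.04 with phloridzin. For both genes all 6 drug-treated livers were below all model livers, phloridzin replicate 1 included. The log2 differences of P4ha1 were -0.999 with silibinin and -0.73 with phloridzin (limma adjusted p = 0.00619 and 0.0278). Those of P4ha2 were -0.80 and -0.64 (limma adjusted p = 0.00531 and 0.0157). Under median-ratio scaling both fell with silibinin and neither passed with phloridzin, and neither differed between the drugs. Against control, Loxl2, P3h2, Plod2 and Serpinh1 were higher with both drugs, and Crtap and P3h3 with phloridzin. These were 4 of 16 beside 4.59% of all genes with silibinin and 6 of 16 beside 7.51% with phloridzin. Median-ratio scaling lost Serpinh1 with silibinin and Crtap and P3h3 with phloridzin.

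Of 13 receptors of basement membrane, 11 were tested, 6 rose in the model (Itga1, Itga6, Itgb1, Bcam, Ddr1 and Ddr2) and Sdc4, the most abundant, fell. Of all genes 31.1% rose, and the median log2 difference of the list was 0.40 against 0.34. Itga6, the alpha6 chain of laminin-binding integrins, was at 0.932 ± 0.144 FPKM (SD, n = 3) in control and 3.88 ± 0.104 in the model, and the laminin receptor Bcam at 1.67 ± 0.561 and 4.51 ± 1.32. Ddr2, a kinase activated by collagen, was at 0.553 ± 0.370 and 2.36 ± 0.498 and fell with both drugs, to 0.890 ± 0.569 with silibinin and 0.698 ± 0.229 with phloridzin (log2 differences -0.86 and -0.98, limma adjusted p = 0.0358 and 0.0228). With each drug Ddr2 was the 1 of 11 that fell, near the share of all genes. Sdc4, a heparan sulfate proteoglycan of the cell surface, was at 270 ± 64.5 and 149 ± 8.60. Under median-ratio scaling Itga1 and Itgb1 did not pass and Itgb1 turned to -0.07, and Ddr2 fell with phloridzin alone. Against control, Itga6 was higher with both drugs and Bcam with phloridzin, which is 1 of 11 beside 4.59% of all genes and 2 of 11 beside 7.51%. Under median-ratio scaling Itga6 did not pass with phloridzin.

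Several liver cell types express basement membrane genes, so 7 lists of marker genes, 9 for cholangiocytes and 10 for each other type, were read in the same livers. Of the myofibroblast genes 9 rose in the model, under both scalings, and none passed from the model with a drug. As for the lists that follow, 31.1% of all genes rose in the same comparison. Col1a2, Lox and Timp1 had control means of 0.395, 0.134 and 0.0637 FPKM and reached the minimum of 0.5 only through the CCl4 livers. This favours their calls as higher than control. Against control 6 of the 10 were higher with each drug, beside 4.59% of all genes with silibinin and 7.51% with phloridzin, and 6 and 4 under median-ratio scaling. Their summed level was 21.9, 14.6 and 13.4 FPKM in the controls, 171, 141 and 185 in the model, 168, 176 and 73.5 with silibinin and 249, 111 and 78.6 with phloridzin. Phloridzin replicate 1 was above every model liver and silibinin replicate 3 was the lowest of its group, as for Sparc. Col3a1, the most abundant gene of the list, was at 72.9, 68.1 and 26.3 with silibinin and at 97.6, 32.5 and 24.1 with phloridzin, and Timp1 was at 0 in 1 control. The part of these genes' cells in the results was not tested.

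Of the stellate cell genes 6 rose in the model (Dcn, Des, Hand2, Lrat, Ngfr and Reln), of which Lrat alone did so under median-ratio scaling, where Colec11 fell. Their sum, led by Dcn, was 108, 115 and 133 FPKM in the controls, 155, 183 and 184 in the model, 147, 201 and 118 with silibinin and 179, 183 and 161 with phloridzin. Lrat, which esterifies retinol in stellate cells, fell with phloridzin from 13.2 ± 1.54 in the model to 7.05 ± 1.31 FPKM (SD, n = 3). The log2 difference was -0.83 (limma adjusted p = 0.0149). Lrat was the 1 of the 10 stellate cell genes that fell with phloridzin, near the 10.4% of all genes. The part of the stellate cell genes in the results was not tested.

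Of the sinusoidal endothelial genes none passed in the model in limma, and under median-ratio scaling Fcgr2b fell. Their sum, led by Clec4g, was 107, 103 and 117 FPKM in the controls, 110, 132 and 120 in the model, 83.9, 132 and 69.2 with silibinin and 133, 136 and 110 with phloridzin. Of the vascular endothelial genes Cd34 and Tie1 rose, Cd34 alone under median-ratio scaling. Their sum, led by Plvap, was 50.9, 45.2 and 56.1 in the controls, 67.8, 79.3 and 70.2 in the model, 51.2, 76.6 and 39.5 with silibinin and 81.2, 78.7 and 57.0 with phloridzin. Silibinin replicate 3 had the lowest sum of the 12 livers in both lists. Their part in the results was not tested.

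Of the cholangiocyte genes 4 were tested, and Krt19 and Spp1 rose in the model, Spp1 alone under median-ratio scaling. Their sum, led by Spp1, was 13.5, 15.4 and 19.6 FPKM in the controls, 49.8, 59.0 and 54.5 in the model, 51.5, 52.5 and 27.2 with silibinin and 56.1, 29.0 and 28.6 with phloridzin, and Cftr was at 0 in 1 control. Of the macrophage genes Adgre1, C1qa, Csf1r and Lyz2 rose, Lyz2 alone under median-ratio scaling. Their sum, led by Lyz2, was 163, 277 and 238 in the controls, 387, 648 and 522 in the model, 444, 594 and 465 with silibinin and 742, 755 and 406 with phloridzin. Against control, 1 of the 10 macrophage genes was higher with silibinin and 6 with phloridzin, beside 4.59% and 7.51% of all genes. Under median-ratio scaling 1 was higher with each, beside 401 and 534 of all 13079 genes. Of the hepatocyte genes Cyp2e1 fell, and G6pc also under median-ratio scaling. Their sum, led by Alb, was 20654, 25072 and 20603 in the controls, 18275, 26537 and 29839 in the model, 31224, 37208 and 22567 with silibinin and 24022, 32394 and 26900 with phloridzin. None of these genes passed from the model with a drug in limma. Against control, Lrat and Reln were higher with silibinin, Cd34 with both drugs and Krt19 with phloridzin, while Fcgr2b and Cyp2e1 were lower with phloridzin, all but Reln under both scalings. Over all 7 lists under median-ratio scaling, Colec11, Emcn and G6pc rose with phloridzin from the model and Lrat fell, beside 613 and 809 of all 13079 genes. The part of these lists in the results was not tested.

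**Figure D5:**
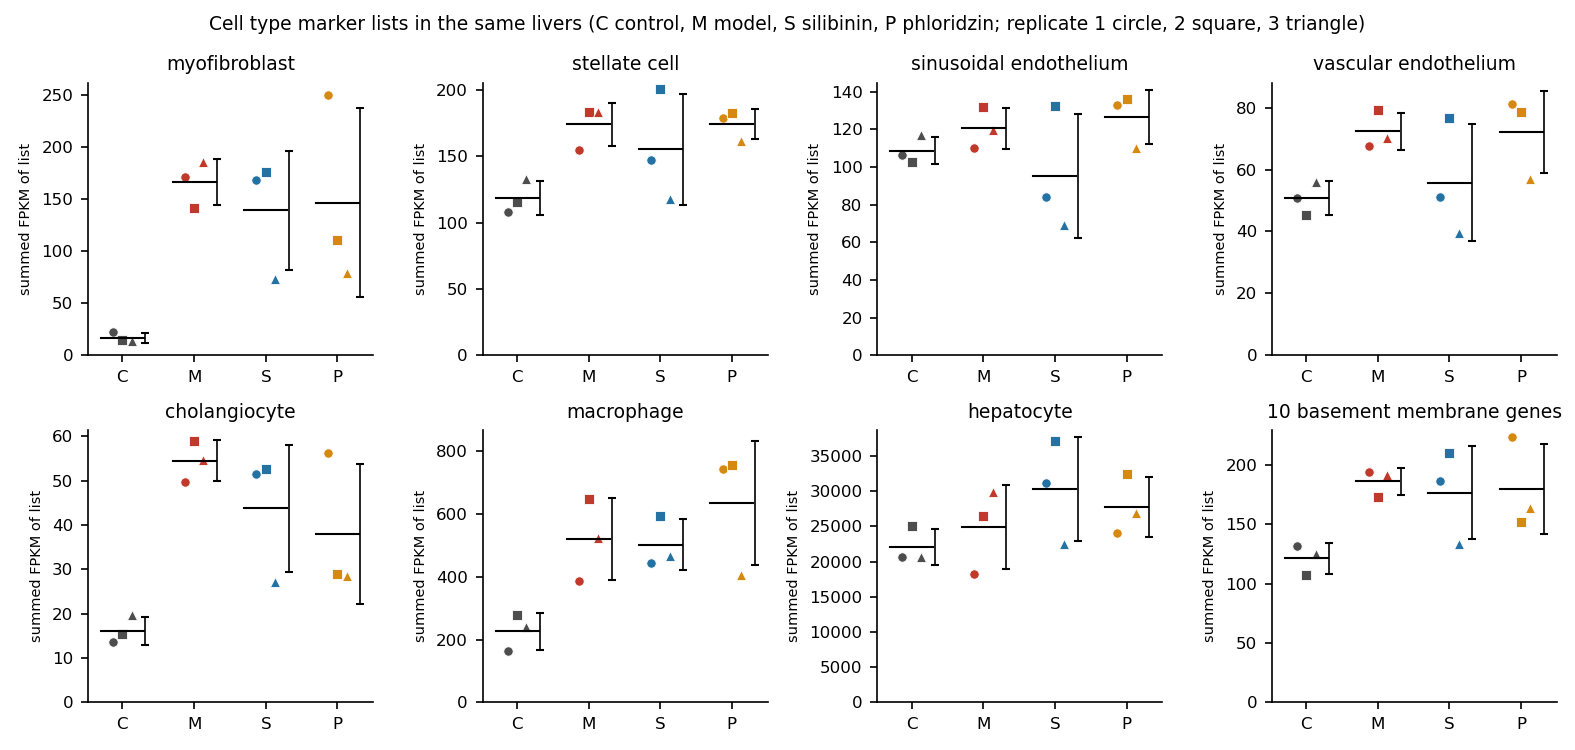
Summed FPKM (y axis, from 0) of 7 lists of cell type markers and of the 10 basement membrane genes in each liver; symbols mark replicates, horizontal lines are means and vertical bars 1 SD over 3 livers. Phloridzin replicate 1 (circle) has the highest myofibroblast sum and silibinin replicate 3 (triangle) the lowest of the 9 CCl4 livers.

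The 5 genes whose pattern over the 12 livers was most like the mean of the 10 were Itga1, Gm14335, Mcm3ap, Tex10 and Vav3. Likeness was the mean absolute difference between z-scores of log2(FPKM + 1), over 11602 genes with a mean of at least 1 FPKM, and ran from 0.283 for Itga1 to 0.315 for Vav3. Itga1, also among the receptors, was at 6.42 ± 0.206 FPKM (SD, n = 3) in control, 9.48 ± 1.41 in the model, 8.15 ± 0.957 with silibinin and 7.97 ± 1.04 with phloridzin. Tex10 was at 3.25 ± 0.202, 7.42 ± 0.767, 5.05 ± 0.647 and 4.90 ± 1.004 in the same order. Among the 10 genes, which enter the mean themselves, the same measure was smallest for Col4a2 (0.350) and largest for Col18a1 (1.09), Hspg2 (0.770) and Lamb2 (0.733).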

How the data were processed

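RNA of 12 mouse livers was sequenced on an Illumina NovaSeq from libraries of a kit that does not mark strand. The authors deposited FPKM per transcript, and the submitters' processing notes name HISAT2 2.1.0, StringTie 1.3.3b and build mm10. Transcripts of a symbol were summed for each liver. Symbols with a mean of at least 0.5 FPKM, 13158 in number, were tested on log2(FPKM + 1) with limma 3.58.1 in R 4.3.3, with a trend in the variance and 1 fit of all 12 livers. The mean was over all livers, so genes low in control entered through the CCl4 livers. Among them were Col15a1, Lama2, Tinag, Plod2, P3h2, Loxl2, Col1a2, Lox and Timp1. This favours calls as higher than control for them. With no filter Col15a1 also rose in the model. Benjamini-Hochberg adjustment ran over all genes of a comparison, and a gene passed at an adjusted p under 0.05. Because of the added 1, fold changes of low genes are understated. Transcripts were tested in the same way, and chain ratios by exact permutation. The procedure was tested on simulated data, whose outcome is not reported here, so no call rests on it.

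The genes and lists were chosen with earlier results of these data known. The text names the 10 genes, companion-list genes that passed, the most abundant of each list and the 5 most like genes. Of the cholangiocyte list 1 gene is not reported here and is left out of its sum. FPKM multiplied by transcript length gave whole fragments (within 0.05) for over 99% of low values, so depth was recovered from them. Alternatives were another pseudocount, 2 other filters, fits of 2 groups, a replicate block, median-ratio scaling, the most abundant transcript alone, each liver left out and, added after the data were seen, voom on fragment numbers and 2 livers left out. A planned fit of Ensembl transcripts only is the same fit, since all transcripts with a symbol are from Ensembl, and tests nothing. Promoters came from RefSeq (GRCm38.p6).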

Additional observations from a re-analysis of the deposited data

How the results depend on the processing

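The number of genes that rose in the model was 6, 5 with a log2 cutoff of 1, 5 with 1 lower under median ratios, 8 with only the 2 groups compared, 7 with 2 drug livers left out and 5 to 8 without single livers. All 10 genes were tested with no filter and in the fit of model and control livers alone. In the fit of phloridzin and control livers alone 8 were tested. Lower with silibinin was 1 gene, and 0 with a log2 cutoff of 1, a pseudocount of 0.1, no filter, only the 2 groups compared or median ratios (0 to 2 without single livers). Voom and the most abundant transcript gave Lamc1 in place of Lamb2. Lower with phloridzin was 1 gene, and 0 in those settings, with the replicate block and with the most abundant transcript alone (0 to 4 without single livers). Between the drugs it was 0 throughout. Higher than control with silibinin were 3 genes, 3 with voom (Lamc1 in place of Col4a2), 2 (Col4a2 lost) with a minimum of 1 FPKM, only the 2 groups, the replicate block or median ratios, and 0 with no filter or the most abundant transcript (0 to 4 without single livers). Higher than control with phloridzin were 2 genes, 3 with voom (Lamc1 added), 1 with no filter (Sparc) or the most abundant transcript (Lamc1, so that both calls were lost) and 0 with only the 2 groups compared (0 to 3 without single livers). Without silibinin replicate 3 and phloridzin replicate 1, 6 genes were lower with phloridzin, beside 1836 of all 13113 genes. In that fit 5 were above control with silibinin, beside 1411 of all genes, where the main fit had 604 of 13158. Genes with all phloridzin livers below the model went from 1 to 0 under median ratios. The fit without those 2 livers, this overlap count under median ratios and voom were added with the data already seen. Voom gave 6 genes in the model and Lamc1 with each drug. The cause was not tested.

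In the model against control and each drug against the model, log2 differences that changed sign were Col4a2 with silibinin, at 0.044 under median ratios and 0.1004 without silibinin replicate 3, alone or with phloridzin replicate 1 (-0.344 to 0.1004 without single livers), Lamb2 with phloridzin, at 0.053 under median ratios, and with a pseudocount of 0.1 transcripts of Nid1 (-0.043) and Lamc1 (-0.286) with phloridzin. Of the other gene log2 differences in these 3 comparisons, 537 kept direction and side of the threshold, 34 lost a call and 19 gained one. The 537 include Ensembl transcripts only, which repeats the same fit. In the other 3 comparisons, sign also changed in at least 1 setting between the drugs for Col4a1, Col18a1, Lamb1, Lamc1, Nid1 and Sparc, against control with silibinin for Col18a1 and Lamb2, and with phloridzin for Col18a1, Lamb1 and Nid1. With the group mean of each gene subtracted, the remaining deviations of same-numbered livers correlated at -0.09 to 0.10 over 18 pairs. Pairs with unlike numbers from different groups ran from -0.17 to 0.15, and 2 of 12 livers correlated best with their own number. These values gave no sign of pairing by replicate number, which does not exclude it. With the replicate block 6 genes passed in the model and 1 with silibinin. Fewer than 100 fragments lay behind Col15a1, Lamb2 or Hspg2 in at least 1 liver, so low levels of these genes are imprecise.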

Other observations

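A short gene inside Lamc1, named after its values were seen, was listed in the model livers alone. Gm8818 (chr1:153305432-153306478, plus strand), which lies in the first intron of Lamc1 on the opposite strand, was at 4.27, 8.11 and 6.76 FPKM in the model and listed at 0 in the 9 other livers. The libraries do not mark strand. Unnamed transcripts inside Sparc and Lamc1, on the same strand, had means of 0.192 ± 0.0852 and 0.159 ± 0.0851 FPKM (SD, n = 3) in control and of 0.778 ± 0.185 and 0.626 ± 0.158 in the model. They were at 0.424 ± 0.0743 and 0.305 ± 0.0262 with silibinin and at 0.392 ± 0.164 and 0.346 ± 0.0181 with phloridzin. An unnamed transcript inside Col15a1, on the opposite strand, was at 0.618 ± 0.455 in control and 0.755 ± 0.483 in the model. It was at 0.468 ± 0.354 with silibinin and 0.233 ± 0.142 with phloridzin.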
